A study of Homo sapiens with 6 samples.

Results

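The genes described here are 8 drug and conjugate export pumps of the ATP-binding cassette (ABC) family: ABCC1, ABCC2, ABCC3, ABCC4, ABCC5, ABCC10, ABCB1 and ABCG2. They were taken from the deposited table by gene symbol, and each matched 1 of its 60675 gene IDs. The set was drawn up with the K29Q against WT values of these libraries in view, ABCC2 above all, so the differences of the members between the groups are a description: no p is given for any member, and the counts of members past a threshold stand beside those of all genes with nothing read from them. The set was selected on these values and on its symbols. All 6 libraries, 3 in each group, came from the human colon cancer line HCT116. K29Q cells stably expressed PHF5A in which glutamine replaces the lysine named in the label, and WT cells stably expressed the wild-type PHF5A. PHF5A belongs to the SF3B complex of the spliceosome, which recognises the branch site, and a glutamine stands in for a lysine in its acetylated form. The labels name no other agent or time point. They do not say whether the cells' own PHF5A gene was left in place, whether a line was a clone, or whether cultures were separate, so any error below measures only the spread between libraries, which may be technical.

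ABC exporters use ATP hydrolysis to move compounds out of the cell against a gradient. The ABCC members, known as multidrug resistance proteins, mainly carry organic anions, among them drugs and hormones joined to glutathione, glucuronate or sulphate. ABCB1 (P-glycoprotein) carries many uncharged or positively charged drugs. ABCG2 (breast cancer resistance protein) carries many drugs and also anions such as urate. In the gut epithelium ABCC2, ABCB1 and ABCG2 sit in the apical membrane and return compounds to the lumen, while ABCC1 and ABCC3 sit in the basolateral membrane.

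Values are FPKM, fragments scaled to transcript length and to the mapped fragments of the library, so levels of different genes can be set side by side. The FPKM of a library summed to between 249034 and 253451, and between 12916 and 13298 genes reached an FPKM of at least 1. Depth is not stated. The low values of single-exon genes moved in steps, and if 1 step was 1 fragment, the libraries held about 33900000 to 40700000 fragments. Of 10 colon epithelial markers 6 averaged an FPKM of at least 1 (EPCAM, CDH1, KRT8, KRT18, KRT19 and CDX2), while KRT20, VIL1, CDX1 and CEACAM5 did not. Of the leukocyte, of the fibroblast and endothelial, and of the hepatocyte markers, 1 each did (CD68, COL1A1 and SERPINA1). Their summed FPKM overlapped between the groups, at 2.57 to 3.05 in K29Q and 2.41 to 3.11 in WT for leukocytes, 4.93 to 6.31 in K29Q and 4.84 to 5.76 in WT for fibroblasts and endothelium, and 1.90 to 2.16 in K29Q and 1.96 to 2.58 in WT for hepatocytes. The epithelial sum ran from 1147 to 1201 in K29Q and from 1248 to 1400 in WT, and its part in the results below was not tested. PHF5A itself had 41.4, 45.9 and 45.0 FPKM in K29Q and 32.4, 34.4 and 32.7 FPKM in WT. In these bulk libraries a change in every cell and a change in some of the cells cannot be told apart.

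ABCC2 had the highest level of the 8 pumps in all 6 libraries. Averaged over the libraries it had 30.1 FPKM, and ABCC1 followed with 21.8 FPKM. ABCC2 exceeded ABCC1 within every library, by 1.05 times in WT 3 and 1.66 times in K29Q 3 at the extremes. The next 4 members lay close together: ABCC4 averaged 5.29 FPKM, ABCC10 4.44 FPKM, ABCC3 4.03 FPKM and ABCC5 3.997 FPKM. The ranges of neighbours among these 4 overlapped, and ABCC3 was above ABCC5 in only 4 of the 6 libraries. ABCB1 averaged 1.22 FPKM and ABCG2 0.442 FPKM, each with a range clear of the member above it. ABCB1 was the lowest member that passed the filter for testing (3 or more libraries with an FPKM of 1 or higher), and ABCG2 was the member that did not pass it.

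**Figure D1:**
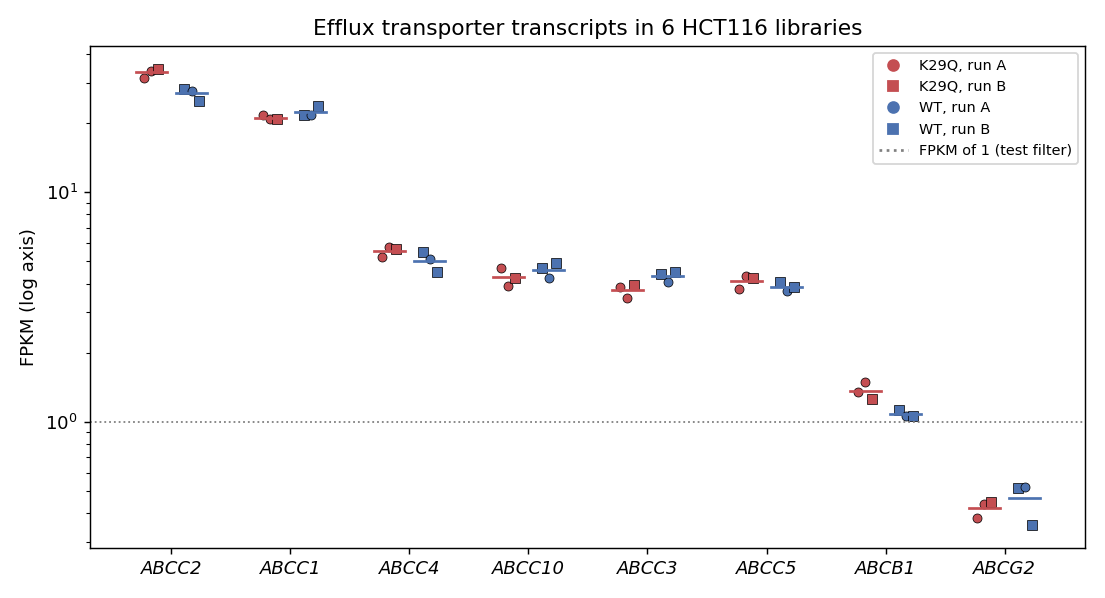
FPKM of the 8 efflux transporters on a log axis, with 1 point per library, K29Q left of WT and a bar at each group mean; circles and squares mark the run names A and B of the column headers. ABCC2 and ABCC1 stand above 20 FPKM, ABCC4, ABCC10, ABCC3 and ABCC5 between 3 and 6 FPKM, and ABCG2 is below 1 FPKM in every library.

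Among 48 ABC genes looked up in the table, ABCC2 ranked 1 and ABCC1 ranked 2 by mean FPKM. ABCF2, a cytosolic ABC protein that is not a transporter, followed with 21.7 FPKM, close to ABCC1. ABCC2 made up 14.0 ± 0.732% of the summed FPKM of the 48 genes in K29Q and 11.7 ± 0.860% in WT (SD, n = 3 each). Of the 48 genes 25 passed the filter, and 18 averaged under 0.1 FPKM. The bile salt pump ABCB11 and the phospholipid pump ABCB4, which share the canalicular membrane of the liver with ABCC2, averaged 0.000683 FPKM and 0.0138 FPKM. ABCC2 ranked 1158 by mean FPKM among the 13261 genes tested, ABCC1 1703 and ABCB1 12376.

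**Figure D2:**
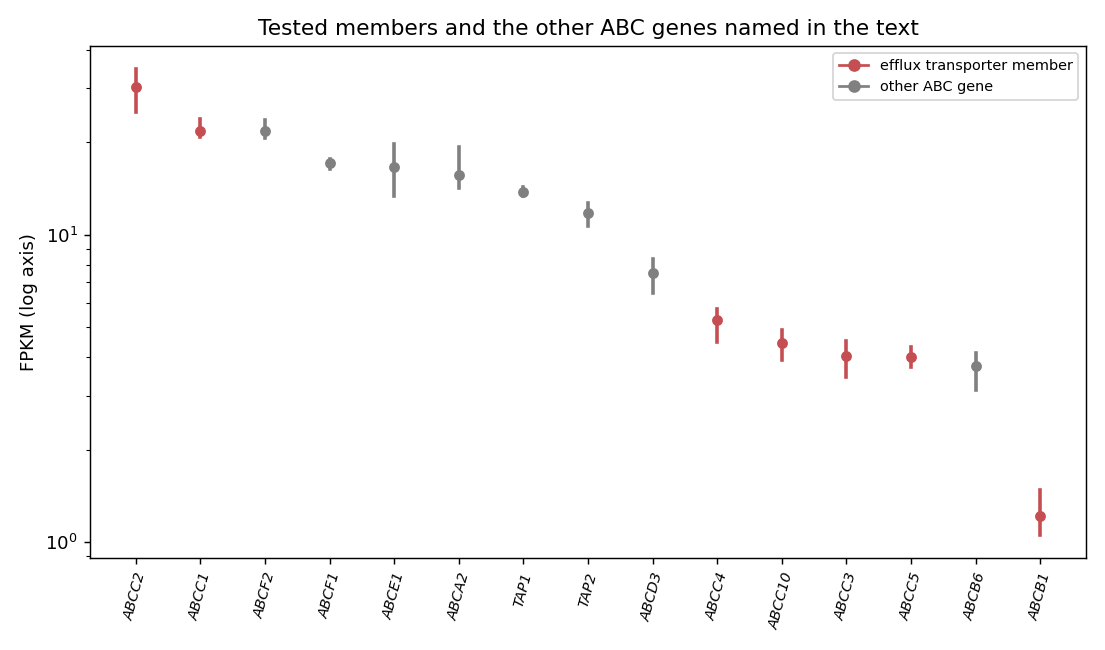
Mean FPKM (points) and the range over all 6 libraries (lines) of the 7 tested members (red) and of the other ABC genes named in the text with values in both groups (grey), on a log axis. ABCC2 and ABCC1 are the highest genes drawn and ABCB1 the lowest.

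ABCC2, which carries conjugated bilirubin and glutathione conjugates across the apical membrane, had 31.6, 33.8 and 34.5 FPKM in K29Q 1 to 3 and 28.2, 27.6 and 25.0 FPKM in WT 1 to 3. Every K29Q library lay above every WT library, and the gap between the nearest libraries was that between K29Q 1 and WT 1. The means were 33.3 ± 1.52 FPKM in K29Q and 26.9 ± 1.71 FPKM in WT (SD, n = 3 each), a ratio of 1.24. On the log2(FPKM + 1) scale the difference was 0.30 (SE 0.071), the largest of the 8 members on that scale. By ratio of means ABCB1 was slightly higher, at 1.26. The gene (ENSG00000023839) lies on the plus strand of chromosome 10 from 99782640 to 99852594 (GRCh38, GENCODE 29), and its longest annotated transcript has 32 exons and 5806 nt. If the steps above were fragments, these values rest on about 5145 to 8004 fragments per library. The pseudogene NANOGP6, annotated inside ABCC2 on the opposite strand, shares no exonic base with it and had at most 0.975 FPKM.

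ABCC1, which exports glutathione conjugates and leukotrienes through the basolateral membrane, went slightly the other way. It had 21.7, 20.8 and 20.8 FPKM in K29Q 1 to 3 and 21.8, 21.8 and 23.7 FPKM in WT 1 to 3. The groups did not overlap, but the nearest libraries, K29Q 1 and WT 1, were almost level. The ratio of means was 0.941 and the log2 difference −0.08 (SE 0.062). ABCC1 (ENSG00000103222) lies on the plus strand of chromosome 16 from 15949577 to 16143074. ABCC2 and ABCC1 together made up 73.7 ± 0.200% of the summed FPKM of the 8 members in K29Q and 71.8 ± 0.713% in WT. The share of ABCC2 alone was 43.6%, 45.7% and 46.0% in K29Q and 40.2%, 40.6% and 36.8% in WT. The share of ABCC1 was 28.6 ± 1.17% in K29Q and 32.7 ± 2.06% in WT. The members summed to 73.9 ± 1.28 FPKM in K29Q and 68.7 ± 1.31 FPKM in WT. Without ABCC2 the sum was 40.6 ± 0.406 FPKM in K29Q and 41.8 ± 1.25 FPKM in WT (SD, n = 3 each), and the groups overlapped.

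**Figure D3:**
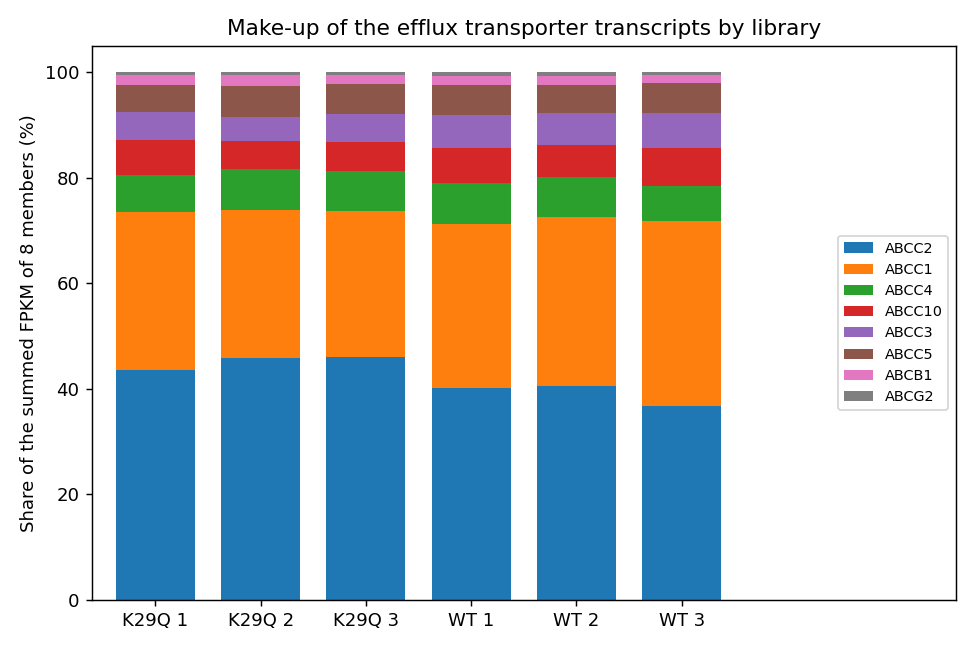
Share of each member in the summed FPKM of the 8 members, as stacked bars for the 3 K29Q and then the 3 WT libraries. The ABCC2 part covers 43.6% to 46.0% in K29Q and 36.8% to 40.6% in WT.

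ABCC3, a basolateral exporter of glucuronides and bile salts, was the member with the lowest K29Q value relative to WT. It had 3.85, 3.46 and 3.94 FPKM in K29Q 1 to 3 and 4.40, 4.05 and 4.50 FPKM in WT 1 to 3, with no overlap. The ratio of means was 0.868 and the log2 difference −0.16 (SE 0.072). The gene (ENSG00000108846) lies on the plus strand of chromosome 17 from 50634777 to 50692252.

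The cyclic nucleotide exporters ABCC4 and ABCC5 overlapped between the groups. ABCC4, which also carries prostaglandins, had 5.20, 5.75 and 5.68 FPKM in K29Q and 5.48, 5.12 and 4.49 FPKM in WT, a ratio of 1.10 and a log2 difference of 0.12 (SE 0.082). ABCC5 had 3.80, 4.31 and 4.23 FPKM in K29Q and 4.07, 3.71 and 3.86 FPKM in WT, a ratio of 1.06 and a log2 difference of 0.07 (SE 0.070). ABCC10, which exports taxanes, had 4.69, 3.91 and 4.24 FPKM in K29Q and 4.68, 4.21 and 4.91 FPKM in WT. Its groups overlapped too, at a ratio of 0.930 and a log2 difference of −0.09 (SE 0.083). Of its exonic bases 79 are shared with DLK2 on the opposite strand, which had 1.75 FPKM in K29Q and 2.21 FPKM in WT, and the strand setting of the quantification is not given in the sources used here. ABCC4 (ENSG00000125257) lies on chromosome 13 from 95019829 to 95301475, ABCC5 (ENSG00000114770) on chromosome 3 from 183919934 to 184018015 (minus strand both), and ABCC10 (ENSG00000124574) on chromosome 6 from 43427366 to 43450430 (plus strand).

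ABCB1, the pump whose overexpression is the classical route to multidrug resistance, was scarce in both groups. It had 1.35, 1.48 and 1.26 FPKM in K29Q 1 to 3 and 1.12, 1.06 and 1.06 FPKM in WT 1 to 3, and every K29Q library was above every WT library. The ratio of means, 1.26, was slightly above that of ABCC2 (1.24). The log2(FPKM + 1) difference was smaller, at 0.18 (SE 0.071), since the added 1 shrinks differences of low genes. These values rest on an estimated 180 to 289 fragments per library, far fewer than for ABCC2. ABCB1 (ENSG00000085563) lies on the minus strand of chromosome 7 from 87503633 to 87713323. RUNDC3B overlaps it on the opposite strand without sharing an exonic base, and had 0.895, 0.876 and 1.05 FPKM in K29Q and 0.785, 0.364 and 0.472 FPKM in WT. Reads from introns of either gene cannot be assigned without strand, and the part of RUNDC3B in the ABCB1 values was not tested.

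ABCG2, which works as a dimer and carries urate and many drugs, was below 1 FPKM in all libraries. It had 0.379, 0.437 and 0.446 FPKM in K29Q and 0.516, 0.519 and 0.355 FPKM in WT, on an estimated 56 to 86 fragments per library, and the groups overlapped. The ratio of means was 0.908. ABCG2 (ENSG00000118777) lies on the minus strand of chromosome 4 from 88090264 to 88231322.

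The sequence before the annotated transcript starts is shown for ABCC2 and ABCB1, the members whose K29Q libraries all lay above the WT libraries. The set of sequences used, from RefSeq (GRCh38.p14), covered starts of 6 of the 8 members and lacked ABCC1 and ABCC3. Each line gives the 250 bases just upstream of a start, 5′ to 3′ on the gene's strand, and capitals mark matches on either strand to the motifs searched. These were the GC box with letters GGGCGG, the box named CCAAT, the TATA box with letters TATAAA, the cores ACGTG and also GCGTG that HIF binds, and the antioxidant response core with letters TGACNNNGC. Overlapping matches were counted apart.
ABCC2, chr10:99782390-99782639, plus strand: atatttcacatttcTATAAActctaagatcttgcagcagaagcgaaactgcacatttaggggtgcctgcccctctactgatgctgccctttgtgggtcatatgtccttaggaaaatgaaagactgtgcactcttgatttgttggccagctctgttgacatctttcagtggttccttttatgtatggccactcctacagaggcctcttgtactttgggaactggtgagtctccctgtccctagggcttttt
ABCB1, chr7:87600885-87601134, minus strand: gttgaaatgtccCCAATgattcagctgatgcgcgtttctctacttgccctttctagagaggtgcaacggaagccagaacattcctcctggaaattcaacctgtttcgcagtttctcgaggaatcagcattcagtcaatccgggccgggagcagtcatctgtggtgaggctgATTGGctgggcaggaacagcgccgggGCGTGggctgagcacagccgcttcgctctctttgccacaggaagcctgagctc
ABCB1, farther upstream start, chr7:87713296-87713545, minus strand: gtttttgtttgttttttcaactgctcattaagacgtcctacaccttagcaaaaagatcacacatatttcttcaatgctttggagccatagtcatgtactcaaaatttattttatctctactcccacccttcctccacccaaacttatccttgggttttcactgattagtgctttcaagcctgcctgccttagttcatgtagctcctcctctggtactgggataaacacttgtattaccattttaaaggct

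The ABCC2 window had a GC content of 45.6% and 1 CpG, below the median of 58.0% and 11 CpGs over 35114 human starts. Its TATAAA lies 236 to 231 bases before the start, and 10.7% of all starts have such a match within the same length. The ABCB1 window nearest the gene body had a GC content of 55.6% and 12 CpGs. It held CCAAT in both orientations, and GCGTG. A match on either strand was found before 32.0% of starts for CCAAT and 32.2% for GCGTG. The farther ABCB1 window had 39.2% GC, 1 CpG and no match. By contrast the ABCC4 window had 80.4% GC and 42 CpGs, and that of ABCC5 64.8% and 21 CpGs. GGGCGG, found before 42.6% of starts, was in the windows of ABCC5, of 1 ABCC10 start and of 2 of the 5 ABCG2 starts. TGACNNNGC (10.9%) was in those of ABCC4 and of the other ABCC10 start, and ACGTG (18.5%) in those of ABCC10 and ABCG2. GCGTG was also in windows of ABCC4, ABCC10 and ABCG2, and TATAAA also in windows of ABCC5 and ABCC10. No motif searched was shared by ABCC2 and ABCB1.

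Set against all genes, the 7 members that passed the filter went in both directions. Of these 4 lay above 0 and 3 below, where 51.0% of the 13261 genes lay above 0, with a median log2 difference of 0.07 beside 0.003 for all genes. K29Q was clear above WT for 2 members, ABCC2 and ABCB1, and clear below for 2, ABCC1 and ABCC3, where the groups did not overlap for 8.80% of all genes with K29Q higher and 9.00% with K29Q lower. In the limma fit over all genes 0 of 7 passed an adjusted p of 0.05, as did 0.0528% of all genes (7 genes), and 2 of 7 had an unadjusted p under 0.05 beside 12.5% of all genes. Since the set was drawn up with this contrast in view, nothing is read from these counts.

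Among the 7 tested members, those above 0 had transcripts of lower GC content than those below. The set was drawn up with these differences in view, so nothing is read from this. The 4 members above 0 had 43.1% to 50.8% GC in the longest transcript, and the 3 below had 54.9% to 58.7%. ABCG2, not tested, was an exception, with 41.2% GC and a log2 difference of −0.04. The same tilt ran through all genes: the median log2 difference was 0.06 for 2543 genes with 40% to 45% GC, the class of ABCC2, ABCC4 and ABCB1, and −0.05 for 2078 genes with 55% to 60%, the class of ABCC3 and ABCC10. The 2107 genes with 50% to 55% GC had a median of −0.03. ABCC1 and ABCC5 fall in this class, ABCC1 below 0 and ABCC5 above. The slope on GC differed among libraries within a group and was steepest in WT 3 (0.12 log2 units per 10% GC, relative to the mean of all libraries). Once the trend of each library on GC content and transcript length had been removed, ABCC2 was at 0.24 (SE 0.043), and its groups did not overlap. ABCB1 was at 0.11 (SE 0.070) and ABCC4 at 0.03 (SE 0.052), and both overlapped between the groups. ABCC1 was at −0.07 (SE 0.038) and ABCC3 at −0.15 (SE 0.055), without overlap. ABCC5 was at 0.07 (SE 0.060) and ABCC10 at −0.06 (SE 0.053). The part of GC content in the differences as deposited was not tested.

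**Figure D4:**
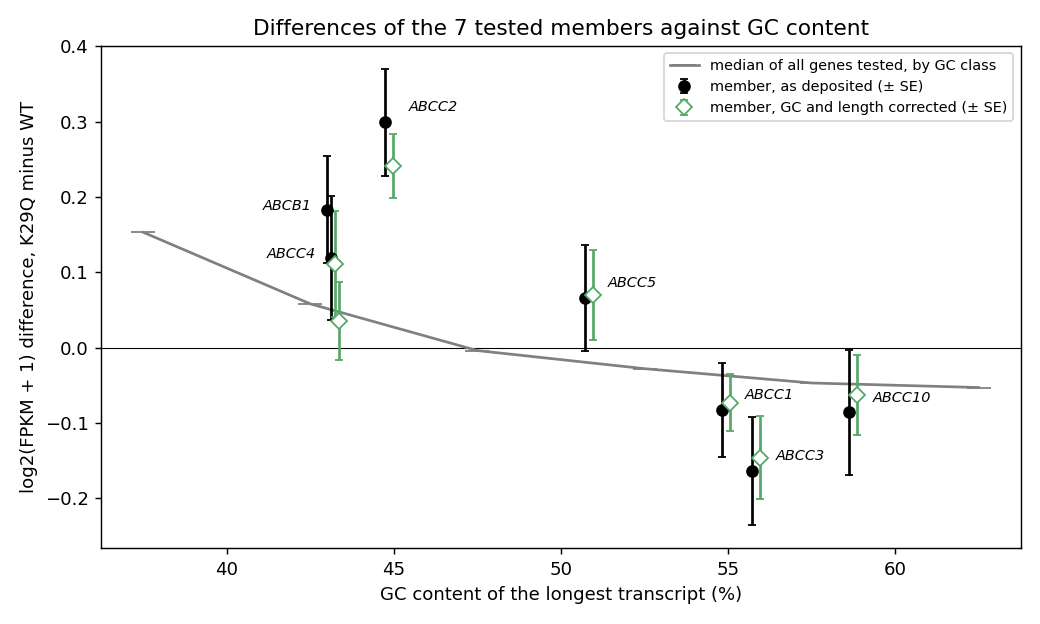
Difference of log2(FPKM + 1), K29Q minus WT, of the 7 tested members against the GC content of the longest transcript, as deposited (black) and after GC and length correction (green), with SE bars; the grey line joins the medians of all genes in 6 GC classes, with the open end classes drawn next to their neighbours. ABCC2 is at 0.30 before and 0.24 after correction, while ABCC4 is at 0.12 before and 0.03 after.

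The column headers carry a run name that divides the groups unevenly. K29Q 1, K29Q 2 and WT 2 carry the name called run A here, and K29Q 3, WT 1 and WT 3 the name called run B. Within run A the log2 difference of ABCC2 was 0.24, and within run B it was 0.37. ABCB1 was at 0.23 and 0.11, ABCC3 at −0.12 and −0.14, ABCC4 at 0.08 and 0.16, ABCC1 at −0.03 and −0.12, and ABCC5 at 0.10 and 0.075, run A before run B. ABCC10 was at 0.02 within run A and −0.15 within run B, and ABCG2 at −0.11 and 0.01, so these members changed sign between the runs. The groups of ABCC2, ABCB1, ABCC1 and ABCC3 did not overlap, so their sign could not differ between the runs. For these members only the size of the difference is informative here.

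**Figure D5:**
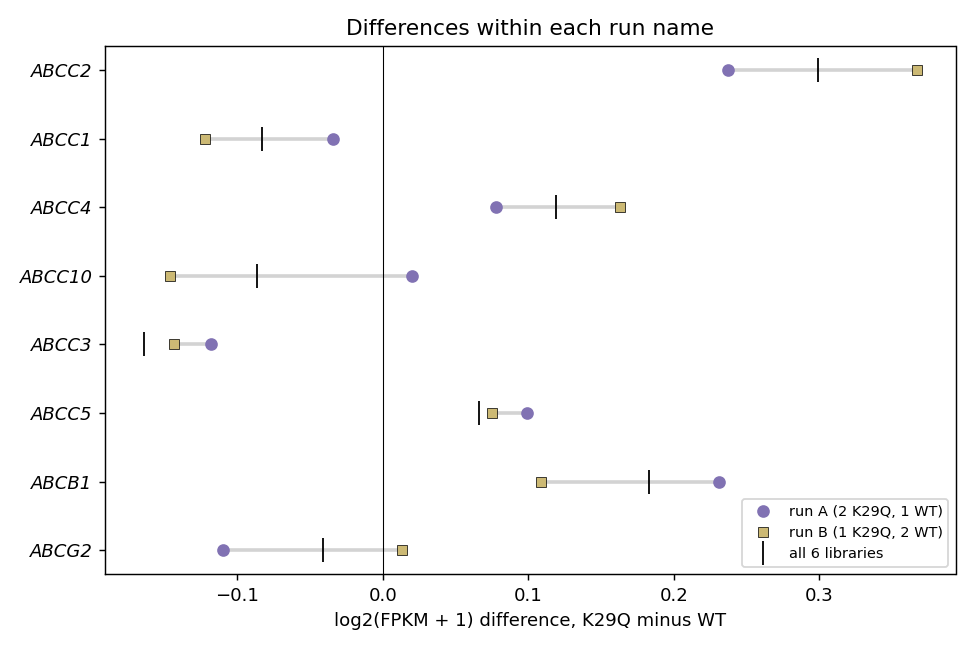
Difference of log2(FPKM + 1), K29Q minus WT, of each member within run A (circles), within run B (squares) and over all 6 libraries (bars). ABCC2 is at 0.24 and 0.37, and as its groups do not overlap it could not fall below 0 in either run. ABCC10 and ABCG2 lie on either side of 0.

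The rest of the ABC family showed no difference past the threshold. Of 40 other ABC genes 18 were tested, 8 above and 10 below 0, at a median log2 difference of −0.001 and a range from −0.09 to 0.21. In limma 0 passed, and 0 had an unadjusted p under 0.05, beside 12.5% of all genes. TAP2, which with TAP1 transports peptides for MHC class I, had 12.4 ± 0.226 FPKM in K29Q and 11.2 ± 0.786 FPKM in WT (SD, n = 3 each), at an adjusted p of 0.44 by limma. TAP1 had 13.8 ± 0.210 FPKM in K29Q and 13.8 ± 0.469 FPKM in WT. ABCE1, which recycles ribosomes, had 17.8 ± 1.71 FPKM in K29Q and 15.4 ± 2.89 FPKM in WT, and the porphyrin transporter ABCB6 3.93 ± 0.239 FPKM in K29Q and 3.56 ± 0.374 FPKM in WT. The peroxisomal fatty acid transporter ABCD3 had 7.86 ± 0.361 FPKM in K29Q and 7.10 ± 1.06 FPKM in WT. The translation-linked ABCF1 and ABCF2 had 17.1 ± 0.130 and 21.0 ± 0.472 FPKM in K29Q and 17.1 ± 0.664 and 22.4 ± 1.07 FPKM in WT. ABCA2, a lipid transporter, had 15.1 ± 1.56 FPKM in K29Q and 16.1 ± 2.81 FPKM in WT. Among the other ABC genes named here TAP2 did not overlap between the groups, with K29Q higher, and the others overlapped. Of all 18 tested, 3 did not overlap with K29Q higher and 0 with K29Q lower, beside 8.80% and 9.00% of all genes.

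Transporters that bring drugs and anions into the cell were described next to the export pumps. Of 41 listed 14 were tested, 7 on each side of 0, with a median of 0.001. In limma 0 passed and 2 had an unadjusted p under 0.05, a share close to the 12.5% of all genes. SLCO4A1, an organic anion uptake transporter, had 26.1, 24.7 and 24.3 FPKM in K29Q and 19.1, 18.8 and 21.5 FPKM in WT. Its groups did not overlap, at a ratio of 1.26 and a log2 difference of 0.32 (SE 0.072, limma, adjusted p = 0.242). After GC and length correction it was at 0.37 and passed the threshold (limma, adjusted p = 0.0213), in a setting where 83 of 13108 genes passed. With a run term added to that correction it did not pass (limma, adjusted p = 0.0809), nor with a replicate block added (adjusted p = 0.163). The related SLCO1B3 had 4.51, 4.52 and 3.90 FPKM in K29Q and 3.77, 2.97 and 2.60 FPKM in WT. The log2 difference of SLCO1B3 was 0.38 (SE 0.115, limma, adjusted p = 0.352), and 0.22 after GC and length correction. The nucleoside transporters SLC29A1 and SLC29A3 had 23.7 ± 0.438 and 2.76 ± 0.167 FPKM in K29Q and 25.5 ± 0.756 and 3.12 ± 0.0630 FPKM in WT (SD, n = 3 each). Both lay lower in every K29Q library, at adjusted p of 0.466 and 0.438 by limma.

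Among the enzymes that conjugate or activate drugs and make glutathione, 25 of 47 listed were tested, 6 above and 19 below 0, with a median log2 difference of −0.06, or −0.04 after GC and length correction, beside 0.003 and −0.005 for all genes. In limma 0 passed and 4 of the 25 had an unadjusted p under 0.05, beside 12.5% of all genes. The groups did not overlap for 5 of the 25, each with K29Q lower, beside 9.00% of all genes. CES2, a carboxylesterase that activates the drug irinotecan, had 3.39, 3.21 and 3.16 FPKM in K29Q and 4.98, 4.01 and 4.34 FPKM in WT (ratio 0.732, log2 difference −0.35, SE 0.082, limma, adjusted p = 0.263). Glutathione synthetase GSS had 33.7, 35.5 and 33.2 FPKM in K29Q and 37.5, 40.1 and 39.7 FPKM in WT (ratio 0.874, log2 difference −0.19, SE 0.059, adjusted p = 0.36). SULT1A3 had 1.43 ± 0.0458 FPKM in K29Q and 2.13 ± 0.537 FPKM in WT, a value that is uncertain because SULT1A4 is a near-identical copy. The abundant enzymes overlapped between the groups, with GSTP1 at 196 ± 15.0 FPKM in K29Q and 205 ± 23.4 FPKM in WT, and NQO1 at 76.7 ± 4.11 FPKM in K29Q and 82.0 ± 4.88 FPKM in WT (SD, n = 3 each).

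Proteins that anchor, sort or turn over the pumps went in both directions. Of 18 listed 15 were tested, 7 above and 8 below 0, with a median of −0.04. In limma 0 of the 15 passed, beside 0.0528% of all genes, and 6 had an unadjusted p under 0.05, 2 with K29Q higher and 4 with K29Q lower, beside 12.5% of all genes. Ezrin (EZR), which ties apical membrane proteins to actin, had 636, 644 and 639 FPKM in K29Q and 677, 758 and 741 FPKM in WT. Its groups did not overlap, at a ratio of 0.882 and a log2 difference of −0.18 (SE 0.061, limma, adjusted p = 0.369), and it was at −0.14 after GC and length correction. The kinase PIM1 had 6.73 ± 0.773 FPKM in K29Q and 8.51 ± 0.739 FPKM in WT, and the sorting protein VPS33B, needed in the liver for canalicular delivery of ABC pumps, 5.05 ± 0.345 FPKM in K29Q and 5.97 ± 0.238 FPKM in WT. The F-box protein FBXO21 had 7.87 ± 0.584 FPKM in K29Q and 6.56 ± 0.433 FPKM in WT (SD, n = 3 each). None of these 3 overlapped between the groups, and none passed (limma, adjusted p of 0.365, 0.368 and 0.368). The scaffold SLC9A3R1 had 74.8 ± 12.5 FPKM in K29Q and 80.6 ± 16.8 FPKM in WT and overlapped.

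Transcription factors known to act on pump genes showed no difference past the threshold. Of 27 listed 20 were tested, 13 above and 7 below 0, with a median of 0.08, or 0.04 after GC and length correction. In limma 0 passed and 0 had an unadjusted p under 0.05, beside 12.5% of all genes. The xenobiotic sensor AHR had 6.59 ± 0.334 FPKM in K29Q and 5.76 ± 0.723 FPKM in WT (SD, n = 3 each). Its log2 difference was 0.17 (limma, adjusted p = 0.463) and 0.01 after GC and length correction. EPAS1, the second HIF alpha subunit, had 3.64, 3.50 and 4.35 FPKM in K29Q and 4.03, 4.28 and 7.51 FPKM in WT, so WT 3 stood apart. YBX1, a factor linked to ABCB1 in drug-resistant cells, had 526 ± 10.1 FPKM in K29Q and 566 ± 30.7 FPKM in WT, and CEBPB 38.8 ± 3.40 FPKM in K29Q and 38.9 ± 2.21 FPKM in WT.

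The profiles most like that of ABCC2 over the 6 libraries were sought by the root mean square difference between log2(FPKM + 1) values, each gene centred on its own mean. The nearest were ADGRF1, an adhesion receptor, at 0.0248, the long non-coding RNA AC006262.5 at 0.0261, and PDK1, a kinase that restrains pyruvate dehydrogenase, at 0.0276 log2 units. ADGRF1 had 1.01, 1.23 and 1.20 FPKM in K29Q 1 to 3 and 0.836, 0.831 and 0.680 FPKM in WT 1 to 3. PDK1 had 1.27, 1.53 and 1.48 FPKM in K29Q and 1.09, 1.07 and 0.896 FPKM in WT. All 3 were far less abundant than ABCC2, and the added 1 shrinks differences of low genes. The ratio of means was 1.47 for ADGRF1, 1.49 for AC006262.5 and 1.40 for PDK1, beside 1.24 for ABCC2. The likeness therefore holds on the log2(FPKM + 1) scale and not for the ratios. After GC and length correction the log2 difference was 0.16 for ADGRF1, 0.34 for AC006262.5 and 0.09 for PDK1, beside 0.24 for ABCC2.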

How the data were processed

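Gene-level RNA-seq values of 3 K29Q and 3 WT libraries of HCT116 cells were used. Per the file headers, the deposited values are FPKM of single libraries. HISAT2 2.1.0, StringTie and the build GRCh38 are named in the submitters' processing notes. Which StringTie version, annotation and strand setting were used is not given in the sources used here. FPKM values are not counts, so no count test was run, and their precision is set by depth, which was estimated from steps in single-exon genes longer than 600 nt.

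The 13261 genes that reached an FPKM of 1 in 3 or more libraries were fitted as log2(FPKM + 1) with limma 3.58.1 in R 4.3.3, with an intensity trend and the group as the only term, two-sided, with Benjamini-Hochberg adjustment over all genes tested and a threshold of 0.05. Fold changes on this scale understate changes of low genes. The fit was tested on simulated data. The changes put in were larger than any difference of a member, so that test does not bear on differences of their size. Positions, GC content and length came from GENCODE 29, which held 13124 of the 13261 IDs. The correction fitted natural splines (4 degrees of freedom each) on GC content and log length per library.

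The members and companion lists were chosen with earlier results of these data known. Of the listed genes, GSTT1 was not found in the table by its symbol. Named genes are the members, the 5 most abundant and the 5 with the smallest p among other ABC genes, the 2 most abundant and the 3 with the smallest p in each other list, the 3 profiles nearest ABCC2, and PHF5A. ABCB4, ABCB11 and genes that overlap a member were chosen after their values were seen. Alternatives were other normalization, filters, pseudocount, covariates, GC correction and libraries left out. 0 columns belonged to other samples.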

Additional observations from a re-analysis of the deposited data

How the results depend on the processing

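The sign of each of the 7 tested members was kept under every alternative run for it, which were quantile normalization, other filters and pseudocount, a replicate block, a run term, GC and length correction alone or with either term, and each library left out. A filter or a replicate block cannot change a difference of group means, so these settings could not alter a sign. For ABCC2, ABCB1, ABCC1 and ABCC3, whose groups did not overlap, neither could another pseudocount or a library left out. The same holds for a run term on the values as deposited, which averages the differences within the runs. ABCC2 ranged from 0.235 (GC and length correction with a run term, chosen after seeing the data) to 0.335 (without K29Q 1). ABCB1 moved by more than its spread with a pseudocount of 0.1 (0.31), which weighs low genes more, and after GC and length correction (0.11, or 0.087 with the run term). Members closer to 0 moved by more than 1.5 times as well. ABCC4, at 0.12 as reported, was at 0.035 after GC and length correction, at 0.022 with the run term too, and at 0.053 without WT 3. ABCC1, at −0.083, was at −0.044 without WT 3. ABCC10, at −0.086, was at −0.045 after correction with the run term, and ran from −0.141 (without K29Q 1) to −0.036 (without K29Q 2), with −0.137 without WT 2 and −0.046 without WT 3. ABCC5, at 0.066, was at 0.038 with quantile normalization, and at 0.111 without K29Q 1, 0.038 without K29Q 2 and 0.041 without WT 2. ABCG2 had a value without the filter only. The count over all genes depended more on the setting: 7 genes passed, against 13 with quantile normalization, 2 with no filter on low values, where 41186 genes were tested, 4 with a run term and 83 after GC and length correction. It ran from 5 to 20 with 1 library left out, at 20 without WT 1 and 12 without K29Q 1. Apart from the filter, the cause was not tested. With the replicate number as a block 3 genes passed, and 1 with GC and length correction as well. Deviations of same-numbered libraries had r of −0.14, 0.179 and −0.165 across genes, which are not independent. Library 2 of each group was alone in correlating best with its own number. The GC trends of single libraries were not removed for these correlations, so they cannot decide whether the numbers pair the libraries. Depth limits ABCG2 most, with an estimated 56 to 86 fragments per library.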
